A study of Mus musculus with 8 samples.

Results

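The brush border peptidases are the enzymes of the apical intestinal membrane that cut dietary peptides into amino acids and short peptides, and 9 of their genes were followed here in sorted goblet cells. The genes were Anpep, Enpep, Dpp4, Mme, Ace, Mep1a, Mep1b, Tmprss15 and Naaladl1, taken by gene symbol. The 9 genes were read by 16 of the 25697 probes of the array, on which 16590 genes were named in all. Goblet cells from the small intestine of C57Bl/6 mice (4 arrays) were compared with goblet cells from the colon of the same strain (4 arrays). No treatment or engineered allele is given in the labels for either segment. Both groups were sorted from EDTA-released epithelium by the same gate, CD45-CD24-CK18+UEA-I+, where UEA-I is a lectin that binds fucose. The labels give neither the age of the mice nor whether each array holds a separate animal or a pool, and the p-values therefore reflect only how these arrays scatter, which may be technical.

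Peptide digestion ends at the brush border, the layer of microvilli on absorptive enterocytes. There, aminopeptidases and dipeptidyl peptidases trim peptides from the amino end, dipeptidyl carboxypeptidases trim them from the carboxyl end, and endopeptidases such as neprilysin and the meprins cut inside the chain. Enteropeptidase acts one step earlier, by turning pancreatic trypsinogen into trypsin. The products enter the cell through peptide and amino acid transporters. These enzymes are classed as enterocyte products, while the cells here were sorted as goblet cells, the mucus-secreting lineage.

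Of the 13 goblet cell markers with a probe, 11 were above background on every small-intestinal array and 13 on every colon array (detection p below 0.05). Clca1, a secreted mucus protease, read 12.46 ± 0.21 log2 in the small-intestinal group and 12.79 ± 0.18 in the colon group (SD, n = 4 per group; limma, adjusted p = 0.243). The colon level was the higher one for 9 of the 13 by limma, and the small-intestinal level for 0. Best2 and Retnlb, among the 9, were detected in colon alone and had to differ. Of the other 11, 7 were called higher in colon, against 13.1% of all genes tested. All 16 enterocyte markers with a probe were above background on every small-intestinal array as well, and 8 of them on every colon array. Array mean signals lay between 386 and 558 units, with 12447 to 13922 probes above background on each. Colon arrays 1 and 4 held more Paneth cell signal than colon arrays 2 and 3. The summed processed signals over 7 genes were 14280 and 14080 units, against 4591 and 3866. On the small-intestinal arrays the same sum was far larger, at 60150 to 95530 units. The number of arrays limits the precision of every value below.

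The promoters of 7 of the 9 genes were matched by symbol in the RefSeq-derived table of the mouse build GRCm38.p6, in 10 windows, since Mme has 3 listed starts and Ace 2. Mep1b and Naaladl1 were not matched. Short motifs of factors known in intestinal epithelium were searched on both strands in the 250 bases before each start: GTTAAT for HNF1, then TTTATG for CDX factors, then AGATAA for GATA factors, and CAAAGT for HNF4, which begins with the letters that TCF factors bind. Of all 32851 windows of this length, 6.43% held the HNF1 letters, 10.8% the CDX letters, 9.99% the GATA letters and 12.6% the HNF4 letters. The windows of 3 genes that were higher in small intestine and of Mep1a, which was not, are printed because they hold such letters. Capitals mark the matches and no match overlapped another.
Tmprss15 (chr16:79091098-79091347, minus strand): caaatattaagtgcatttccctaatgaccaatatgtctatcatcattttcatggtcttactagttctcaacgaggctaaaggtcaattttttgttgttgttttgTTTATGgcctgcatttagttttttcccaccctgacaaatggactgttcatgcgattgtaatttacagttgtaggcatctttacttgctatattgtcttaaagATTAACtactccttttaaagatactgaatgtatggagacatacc
Dpp4 (chr2:62412232-62412481, minus strand): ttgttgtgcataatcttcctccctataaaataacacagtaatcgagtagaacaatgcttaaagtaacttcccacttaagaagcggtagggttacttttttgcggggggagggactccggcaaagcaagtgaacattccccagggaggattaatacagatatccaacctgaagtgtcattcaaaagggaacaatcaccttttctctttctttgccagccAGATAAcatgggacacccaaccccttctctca
Ace (chr11:105967698-105967947, plus strand): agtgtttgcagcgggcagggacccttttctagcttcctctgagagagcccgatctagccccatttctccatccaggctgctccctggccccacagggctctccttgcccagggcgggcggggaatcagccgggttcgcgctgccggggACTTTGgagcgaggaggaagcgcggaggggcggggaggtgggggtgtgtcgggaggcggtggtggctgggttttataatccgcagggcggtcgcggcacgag
Mep1a (chr17:43502774-43503023, minus strand): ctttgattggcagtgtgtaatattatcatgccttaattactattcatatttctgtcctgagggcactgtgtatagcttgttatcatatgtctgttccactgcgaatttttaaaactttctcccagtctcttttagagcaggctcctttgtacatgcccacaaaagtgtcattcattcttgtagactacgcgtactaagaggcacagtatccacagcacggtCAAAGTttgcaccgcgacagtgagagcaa

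In the Tmprss15 window, the HNF1 letters start at position -44 and the CDX letters at -146, counted back from the base before the start. The GATA letters start at -32 for Dpp4, and the HNF4 letters at -102 for Ace and -29 for Mep1a. The second Ace start and 1 of the 3 Mme starts also held the HNF4 letters, at -221 and -79. The windows of Anpep, Enpep and the other two Mme starts held none of these letters. Content of G and C ran from 34.0% for Tmprss15 to 73.6% for a Mme start. Of the printed windows, that of Mep1a lay inside the annotated span of its gene, and that of Dpp4 partly overlapped its gene. Which starts are used in intestine was not checked. A match is a description of the letters and no binding was measured.

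Transcripts of 8 of the 9 peptidases were higher in goblet cells of the small intestine, and Mep1a was not (limma, Benjamini-Hochberg adjusted p below 0.05). Of all 9080 genes tested, 9.3% were called higher in small intestine and 13.1% higher in colon. The differences, small intestine minus colon, had a median of 3.62 log2 over the 9 genes and of -0.07 over all genes tested. A call of at least 4-fold was made for 7 of the 9 and for 2.63% of all genes. The 4 small-intestinal values lay above all 4 colon values for 8 of the 9, against 10.4% of all genes. The filter asked for a detected probe on 4 or more of the 8 arrays without regard to segment, and all 9 genes and 15 of the 16 probes passed it. Mme passed on its small-intestinal arrays alone and had to differ, so it lends these counts no support. Without Mme, 7 of 8 genes were called higher in small intestine, 6 of them by at least 4-fold, and the median was 3.37 log2. The members were chosen with earlier results of these data known, so these counts beside the shares of all genes are a description only. In RNA pooled from sorted cells, fewer cells of a type and less RNA per cell cannot be told apart.

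**Figure D1:**
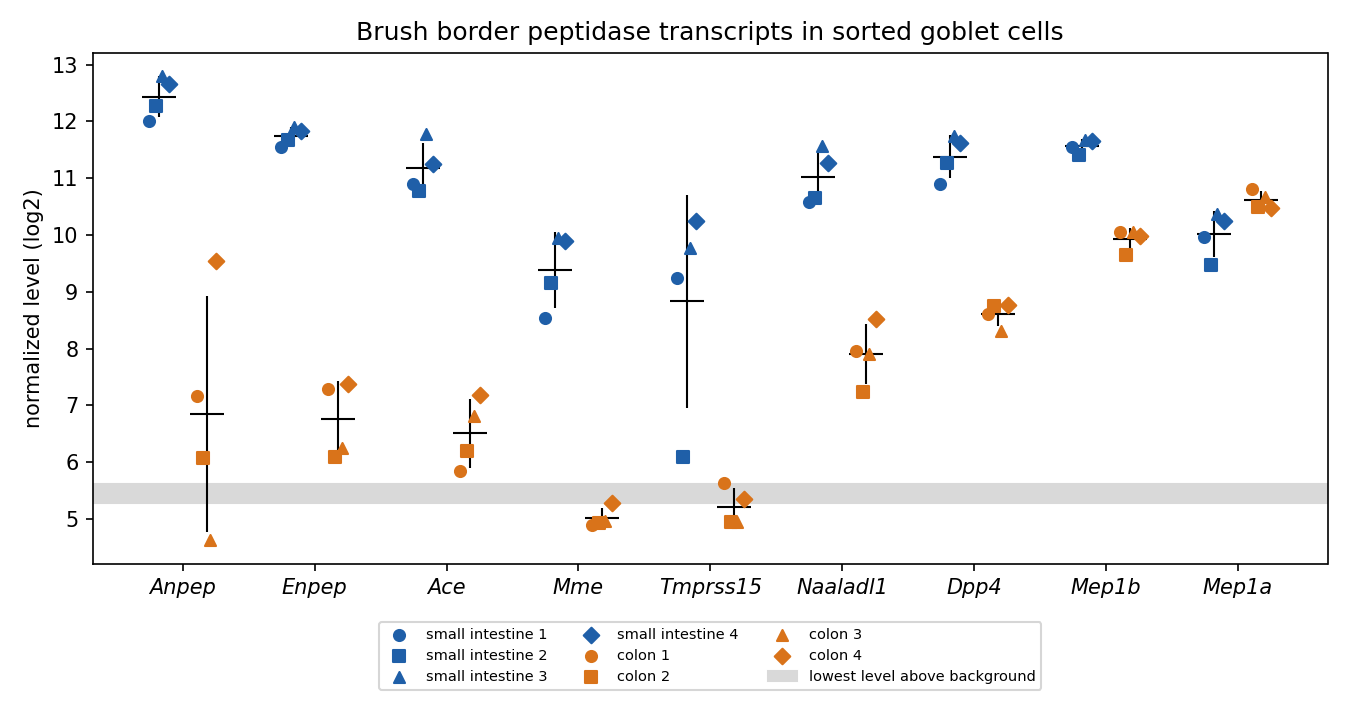
Normalized level (log2) of 9 brush border peptidase genes on 4 small-intestinal (blue) and 4 colon (orange) arrays, 1 probe per gene, with the mean and SD in black and the range of the lowest level above background per array in grey. Small-intestinal arrays lie above colon arrays for 8 genes, and below them for Mep1a. Levels of different genes come from different probes and are not comparable.

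The aminopeptidases Anpep and Enpep were both strongly higher in small intestine. Anpep encodes aminopeptidase N (CD13), which removes neutral amino acids from peptide ends. Its levels were 12.00, 12.27, 12.80 and 12.65 log2 on small-intestinal arrays 1 to 4, and 7.16, 6.07, 4.62 and 9.54 on colon arrays 1 to 4. The segments did not overlap, but the colon arrays spanned a wide range, with array 4 high and array 3 not above background. The difference was 5.58 log2 (SE 0.80, adjusted p = 0.000497), or 47.9-fold, the 7th highest of 9080 genes. It was 6.48 without colon replicate 4, 4.84 without colon replicate 3 and 7.08 without colon replicates 1 and 4.

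Enpep encodes aminopeptidase A, which removes acidic amino acids. Its levels were 11.55, 11.66, 11.89 and 11.84 in small intestine and 7.30, 6.09, 6.25 and 7.37 in colon. All 8 arrays were above background, the small-intestinal arrays were tightly grouped and colon arrays 1 and 4 were the higher ones. The difference was 4.99 (SE 0.30, adjusted p = 1.33e-06), or 31.7-fold.

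Ace and Mme, membrane enzymes best known for cutting peptide hormones, were both far lower in colon. Ace, the angiotensin-converting enzyme and a dipeptidyl carboxypeptidase, stood at 10.90, 10.77, 11.78 and 11.25 in small intestine and at 5.84, 6.19, 6.81 and 7.19 in colon. The colon levels of this probe were low but above background on all 4 arrays. The difference was 4.67 (SE 0.32, adjusted p = 3.11e-06), or 25.4-fold, and the second Ace probe gave 4.58 (SE 0.40).

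Mme, which encodes neprilysin, stood at 8.53, 9.15, 9.94 and 9.90 in small intestine. In colon it stood at 4.90, 4.92, 4.96 and 5.28, and neither of its probes was above background on any colon array. Mme was therefore at least 14.8-fold higher in small intestine by 1 probe and at least 15.8-fold by the other. No p is given for Mme, because its probes passed the filter through small intestine alone. These bounds set the small-intestinal mean against, per colon array, the higher of the probe's own level and the lowest level above background.

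Dpp4 and Naaladl1 kept a clear signal in colon. Dpp4, or CD26, encodes dipeptidyl peptidase 4, which removes dipeptides from peptide ends and inactivates incretin hormones. Its levels were 10.90, 11.27, 11.74 and 11.62 in small intestine and 8.62, 8.75, 8.30 and 8.77 in colon. The colon arrays were evenly above background, and the difference was 2.77 (SE 0.23, adjusted p = 9.03e-06), or 6.83-fold.

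Naaladl1 is related in sequence to glutamate carboxypeptidase II. It stood at 10.58, 10.66, 11.57 and 11.26 in small intestine and at 7.95, 7.24, 7.90 and 8.53 in colon. Colon array 4 was again the highest of its group. The difference was 3.11 (SE 0.31, adjusted p = 3.34e-05), or 8.65-fold. The other two Naaladl1 probes gave 3.31 (SE 0.37) and 3.92 (SE 0.47), or 9.95-fold and 15.2-fold, and the dimmest of them was not above background on colon array 3.

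Tmprss15, which encodes enteropeptidase, was the most uneven of the 9 within small intestine. It stood at 9.24, 6.09, 9.78 and 10.24 on small-intestinal arrays 1 to 4, and at 5.63, 4.95, 4.94 and 5.35 in colon. Small-intestinal array 2 lay close to the colon values, and colon array 1 alone of its group was above background. The fitted difference was 3.62 (SE 0.73, adjusted p = 0.00454), and 4.53 without small-intestinal replicate 2. With 3 of 4 colon arrays not above background, its size has no firm colon level to stand on and no fold is given. A second Tmprss15 probe was above background on small-intestinal arrays 3 and 4 only and was not tested. Its levels there were 6.11 and 7.06. On small-intestinal arrays 1 and 2 it read 5.20 and 4.83, against 4.63 to 5.19 in colon, all below background. The segments therefore overlapped by this probe.

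**Figure D2:**
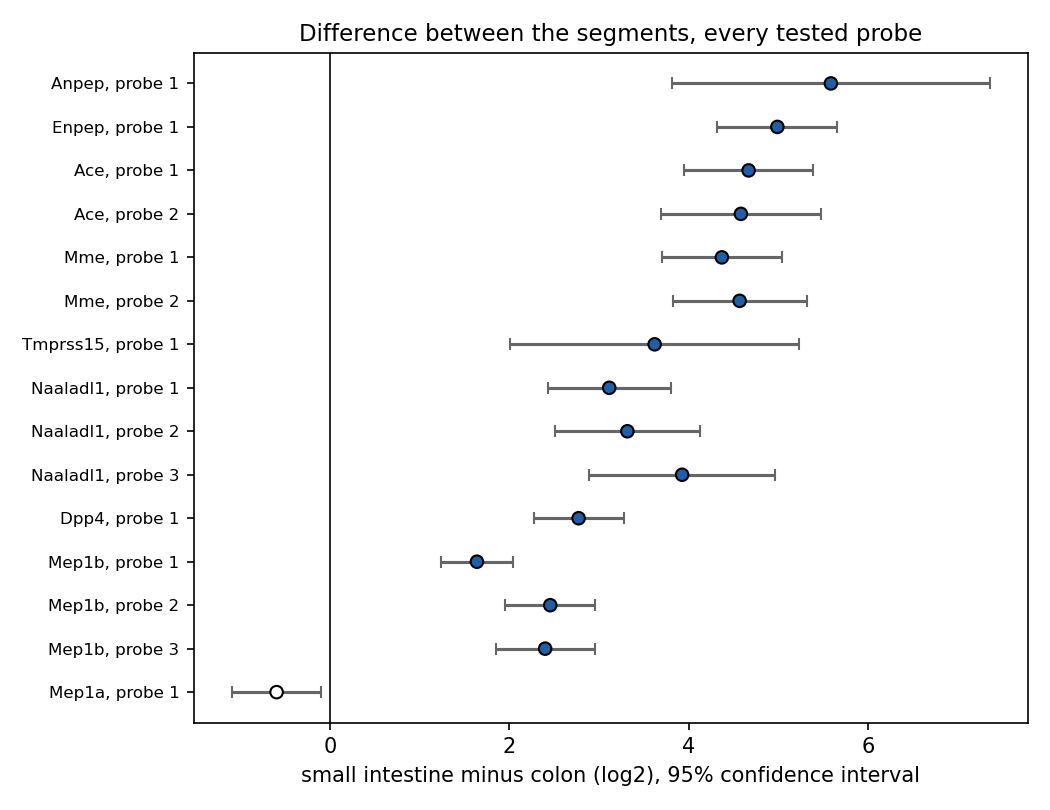
Difference between small intestine and colon (log2) for the 15 tested probes of the 9 genes, with 95% confidence intervals from limma. Filled points passed an adjusted p of 0.05, and the Mme probes were above background in small intestine alone. All 14 probes of the other 8 genes lie right of 0, from 1.64 to 5.58, and the Mep1a probe lies at -0.59.

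The meprins, metalloproteases built from alpha and beta subunits, parted from each other. Mep1b encodes the membrane-bound beta subunit, which is known to cleave mucin and so free mucus from the epithelium. Its levels were 11.54, 11.42, 11.68 and 11.66 in small intestine and 10.06, 9.65, 10.05 and 9.98 in colon. Both groups were tight and did not overlap, and the difference was 1.64 (SE 0.18, adjusted p = 7.14e-05), or 3.11-fold. That was the smallest of the 8 called differences. The other two Mep1b probes gave 2.46 (SE 0.23) and 2.40 (SE 0.25), or 5.48-fold and 5.27-fold.

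Mep1a encodes the alpha subunit, which can be secreted. It stood at 9.96, 9.47, 10.37 and 10.25 in small intestine and at 10.81, 10.48, 10.68 and 10.47 in colon. Every colon value lay above every small-intestinal one, as for 15.7% of all genes tested, but by little. The difference was -0.59 (SE 0.23, 95% confidence interval -1.09 to -0.09). It did not pass after adjustment over all probes (adjusted p = 0.0897). The exact permutation test of this value gave p = 0.0286, two-sided and unadjusted, the smallest that 70 arrangements of the arrays allow. Any gene without overlap reaches that p, so it adds nothing to the lack of overlap. Without scaling between arrays the segments overlapped and the difference was -0.46 (adjusted p = 0.366). That setting moved the median of all genes from -0.07 to 0.14, and relative to the median Mep1a stood at -0.53 and -0.60. Mep1a passed with no background correction (adjusted p = 0.0455) and with a variance prior that follows intensity (adjusted p = 0.0493).

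Ratios within arrays describe the unequal change of Mep1a and the other peptidases. The log2 ratio of the brightest Mep1b probe to Mep1a was 1.56 ± 0.28 in small intestine and -0.67 ± 0.15 on the colon arrays (SD, n = 4 per group). That was a shift of 2.23. The other Mep1b probes, whose differences between segments were larger (2.46 and 2.40 log2), were not used for a ratio. For Dpp4 over Mep1a the shift was 3.36. Of the 8 ratios, the shift was largest for Anpep, at 6.18. No test is given, because numerators and denominator had each separated the segments, in opposite directions, and the ratios had to separate them too. The ratios compare segments, since levels of different probes are not comparable.

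The signal left in colon was expressed as a percentage of the small-intestinal mean, from the authors' processed values. The brightest Mep1b probe kept 34.9%, 27.5%, 34.6% and 33.1% on colon arrays 1 to 4. The other two Mep1b probes kept less, 10.2% to 22.7% and 9.14% to 23.1%, which overlaps the range of Dpp4. Dpp4 kept 13.4%, 16.7%, 9.77% and 15.8%, and Naaladl1 10.2%, 6.95%, 8.98% and 16.6%. These genes had signal on every colon array.

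Enpep kept 3.85%, 1.69%, 1.35% and 4.26%, and Ace 1.61%, 2.65%, 3.17% and 5.29%. Anpep stood at 2.07%, 0.988%, -0.205% and 13.2%, so most of its colon signal came from array 4. Tmprss15 stood at 4.63%, 1.33%, 1.09% and 3.52%, and Mme at 0.921%, 1.05%, 1.12% and 2.89%, nearly all of it below background. Mep1a stood at 173%, 138.5%, 159.5% and 136%.

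The 15 enterocyte markers with at least 500 processed units in small intestine had a median of 6.43%, 1.65%, 0.812% and 15.4% on the same arrays. The 7 Paneth cell markers had medians of 16.01%, 1.22%, 2.79% and 12.8%. Colon arrays 1 and 4 were the highest for both lists. By the probe read per gene, they were also the highest for 4 of the 9 peptidases, namely Anpep, Enpep, Tmprss15 and Naaladl1. Another Naaladl1 probe was highest on array 4, but array 1 was not next. Tmprss15 was above background on colon array 1 alone. With 1 probe per gene, the highest pair was arrays 3 and 4 for Ace and Mme and 2 and 4 for Dpp4. For both meprins it was 1 and 3, but the other Mep1b probes were highest on arrays 2 and 4. The second Mme probe was highest on arrays 1 and 4, and no Mme value in colon was above background. The part of other cells in these differences was not tested.

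**Figure D3:**
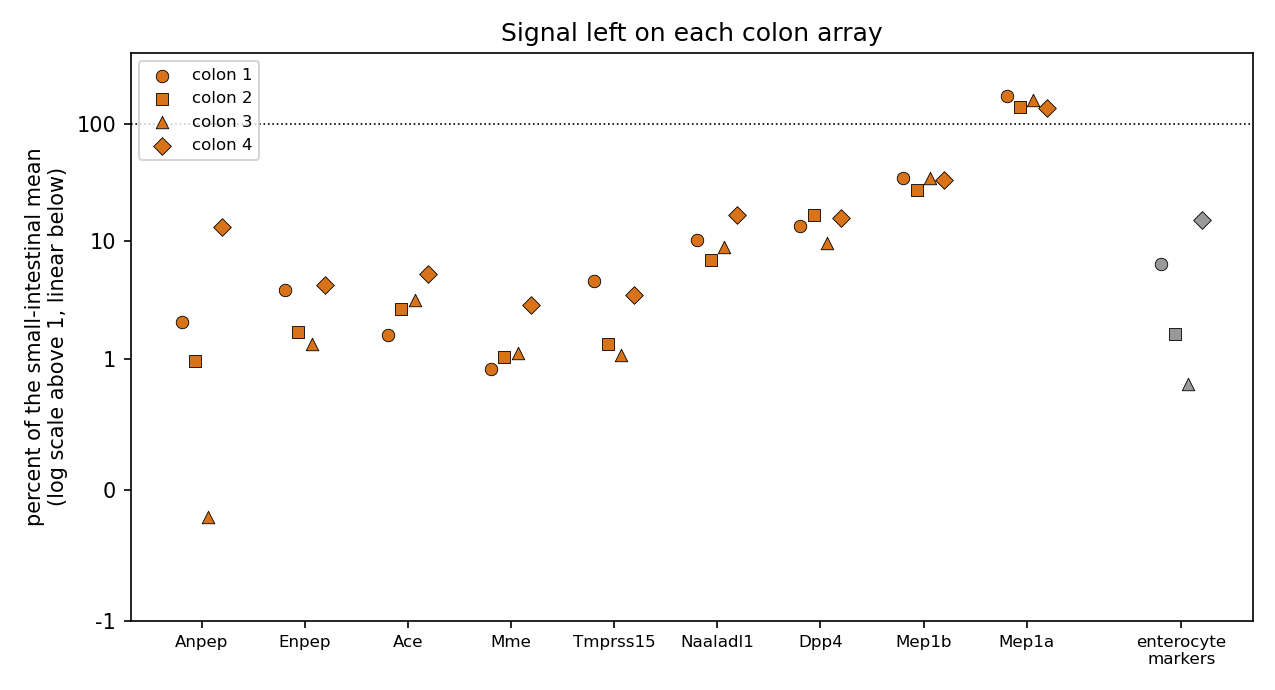
Signal on each colon array as a percentage of the small-intestinal mean, from the authors' processed values, for the 9 genes (orange) and as the median of 15 enterocyte markers (grey). The axis is logarithmic above 1 and linear below. Anpep runs from -0.205% to 13.2%, the brightest Mep1b probe from 27.5% to 34.9%, and Mep1a lies above the dotted line that marks the small-intestinal mean.

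Other enterocyte genes were higher in small intestine too. Of 16 enterocyte markers tested, Fabp1 and Akp3 were above background in small intestine alone and had to differ. The other 14 were all called higher in small intestine, with a median of 4.52 log2. The list's summed processed signal was 44960 to 73700 units in small intestine and 4280 to 13230 in colon. Sis, the brush border sucrase-isomaltase, differed by 4.59 (SE 0.46) and Vil1, the microvillus protein villin, by 1.19 (SE 0.22). Markers of colonocytes, the absorptive cells of the colon, went the other way. Of 7 tested, 3 were above background in colon alone, and of the other 4, 3 were called higher in colon, such as the anion exchanger Slc26a3 at -1.91 (SE 0.22). Several of the peptidases are also made by cells other than enterocytes. T cells, which carry Dpp4, are CD45+ and fall outside the sort gate. Their marker Cd3e differed by 2.24 (SE 0.33, adjusted p = 0.000597), while Cd8a differed by -0.02 (SE 0.26, adjusted p = 0.964). Ptprc, which encodes CD45, was above background on all 8 arrays and differed by 1.00 (SE 0.26, adjusted p = 0.0196).

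Of 7 leukocyte markers tested, 6 were higher in small intestine. The list's summed signal was 1481 to 2311 units there and 149 to 544 in colon. Cd3g was detected in small intestine alone and had to differ. Of the other 6, 5 were called higher in small intestine, against 9.3% of all genes tested. The B cell marker Cd79a was above background on no array. For endothelium, a known site of Ace, 5 of 6 markers were above background on no array, Cdh5, Kdr and Plvap among them. Of 6 stromal markers, none was tested and 3 were above background on no array (Col1a1, Col1a2 and Pdgfra). The other 3 gave 2 detected markers on small-intestinal array 2 and on colon array 1, and 1 each on colon arrays 3 and 4.

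Among the small-intestinal arrays, replicates 3 and 4 were the higher ones for Anpep, Enpep, Dpp4, Mme, Ace, Naaladl1, Mep1a, Mep1b and Tmprss15 alike. The SD over the 4 arrays was 0.12 for the brightest Mep1b probe and 0.16 for Enpep, 0.67 for Mme and 1.88 for Tmprss15. The median for all genes was 0.34, and the other Mep1b probes had SDs of 0.29 and 0.34. The summed enterocyte signal followed the same arrays, at 60500, 44960, 73700 and 68390 units on small-intestinal arrays 1 to 4. Anpep, Enpep, Dpp4, Mme and Naaladl1 were lowest on array 1. Tmprss15, Ace, Mep1a and the brightest Mep1b probe were lowest on array 2, as was the enterocyte sum. The other Mep1b probes were lowest on array 1.

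**Figure D4:**
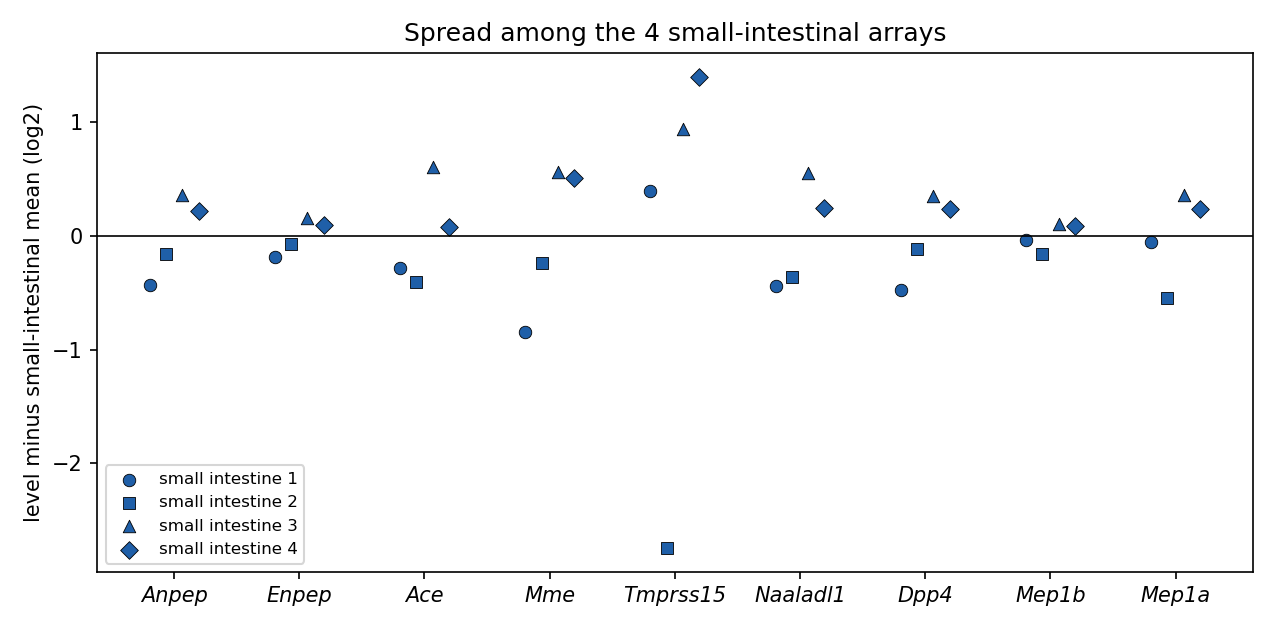
Level of each gene on the 4 small-intestinal arrays minus its own small-intestinal mean (log2). Arrays 3 and 4 lie above the mean for all 9 genes, and Tmprss15 has the widest spread, with array 2 lowest (6.09 against a mean of 8.84).

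Peptide uptake and other peptidases of the same pathway were read from a list of 41 genes, of which 25 were tested. In small intestine 11 were higher, in colon 2, and 12 did not pass, with a median of 0.22 log2. One of the 11, Lap3, was detected in small intestine alone and had to differ. Leaving Lap3 out, 24 genes remained, of which 10 passed for small intestine and 2 for colon. Their differences then centred on 0.12 log2. Among all genes tested, the shares called were 9.3% for small intestine and 13.1% for colon. The transporters were among the higher ones. Slc6a19, the neutral amino acid transporter B0AT1, differed by 4.82 (SE 0.43, adjusted p = 1.44e-05). Slc15a1, the peptide transporter PEPT1, differed by 1.78 (SE 0.23, adjusted p = 0.000239), and Slc7a9, a subunit of the cystine transporter, by 3.17 (SE 0.33). Cltrn, which encodes collectrin, was above background on no array.

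Of the peptidases, Xpnpep2, a membrane aminopeptidase that cuts before proline, differed by 3.20 (SE 0.32), and Pepd, the cytosolic dipeptidase for proline bonds, by 2.71 (SE 0.17). The membrane dipeptidase Dpep1 was high in both segments, at 10.76 ± 0.26 and 10.90 ± 0.18 (SD, n = 4 per group; adjusted p = 0.665). The serine proteases Prss8, or prostasin, and Tmprss2 were higher in colon. Small intestine minus colon was -1.24 for Prss8 (SE 0.28, adjusted p = 0.00859). It was -1.03 for Tmprss2 (SE 0.21, adjusted p = 0.00467). Without scaling between arrays neither passed.

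**Figure D5:**
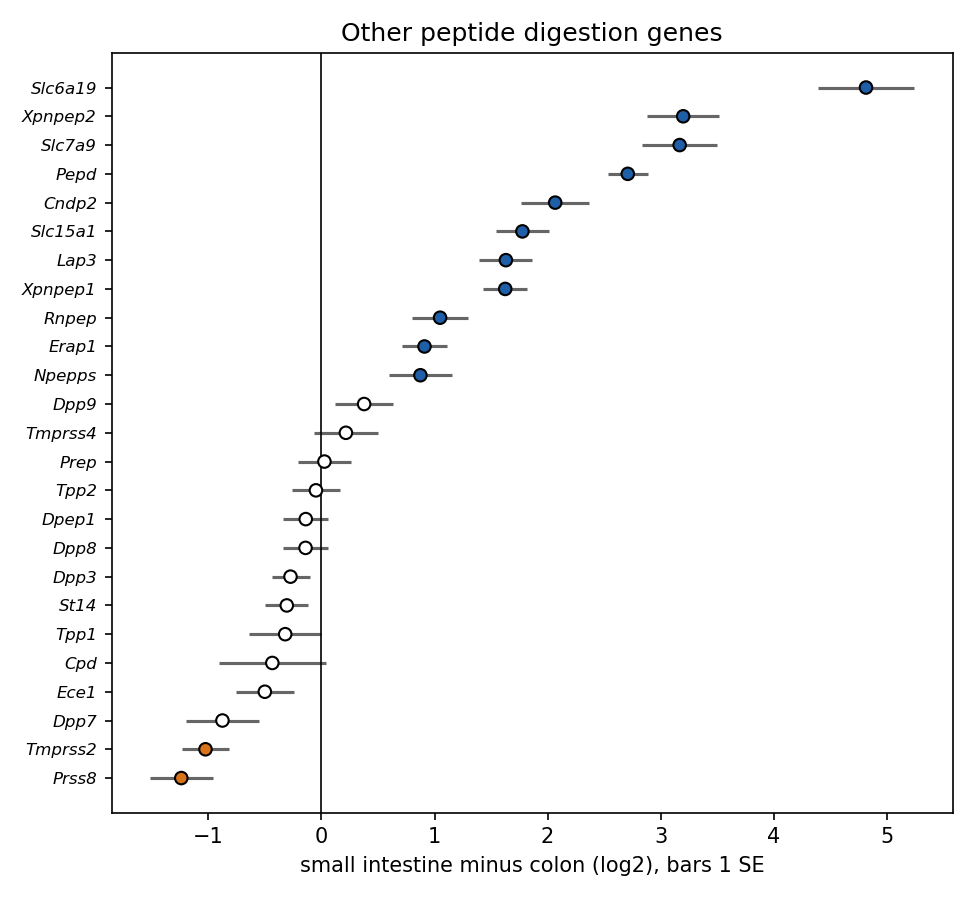
Difference between small intestine and colon (log2, bars 1 SE) for the 25 tested genes of the peptide digestion list. Filled blue points were called higher in small intestine (11), orange points higher in colon (2), and open points did not pass (12). Lap3, among the 11, was above background in small intestine alone and had to differ.

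The genes with the profile most like each peptidase were found by the mean absolute difference of levels over the 8 arrays, each centred on its own mean. For Anpep these were the apolipoprotein genes Apoa4 (0.38 log2) and Apoc3 (0.46). For Enpep they were Slc6a19 (0.23) and the sterol exporter Abcg8 (0.26). The nearest genes to Dpp4 were Nat8f4 (0.14) and the nuclear receptor Hnf4g (0.16).

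Mme lay nearest to the phospholipase Plb1 (0.24) and the amino acid transporter Slc43a2 (0.26), and Ace to the nuclease Dnase1 (0.24) and Slc43a2 (0.28). Naaladl1 lay nearest to Guca2b, which encodes uroguanylin (0.21), and Tm6sf2 (0.22). Mep1b lay nearest to the epoxide hydrolase Ephx2 (0.10) and the cytosolic aminopeptidase Xpnpep1 (0.11), and Mep1a to Nedd4l, a ubiquitin ligase (0.10), and Camk2b (0.11). Tmprss15 had no close neighbour, with Acot12 at 0.50 and the ceramidase Asah2 at 0.57. Among the 9 themselves, Dpp4 and Naaladl1 were the most alike pair (0.29), followed by Ace and Mme (0.35).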

How the data were processed

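The labels describe biotinylated cRNA from 8 samples on an Illumina mouse array. Per the file headers, the deposited signal table holds an intensity and a detection p-value for 25697 probes on each of 8 arrays. The intensities are linear and carry neither a background subtraction nor a scaling. The authors also deposited processed intensities, linear with some negative values. Each of those columns is a straight line of its array's signals with a mean of 293. How its subtraction was chosen, the scanner software and the genome build are not given in the sources used here. In 1 cell of colon array 3, the corrupted signal text was restored from that line.

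The neqc function of limma 3.58.1 (R 4.3.3) corrected background by normexp from the detection p-values, added an offset of 16, quantile normalized the arrays and took log2. Probes with detection p below 0.05 on at least 4 of 8 arrays (13618) entered lmFit and eBayes. Tests were two-sided, with Benjamini-Hochberg adjustment over all of these probes. A gene was read by its tested probe of highest mean, and its other probes are given in the text. Probes were named through Entrez identifiers against RefSeq, and 1719 had no name. Probe positions within transcripts were not used here, so isoforms are not told apart. The lowest levels above background were 5.28 to 5.61 log2. Python 3.11.15 with pandas 2.3.3, numpy 2.4.6 and, for plots, matplotlib 3.10.9 made the tables.

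The members, the gene lists and the tests were chosen with earlier results of these data known. Named genes were all 9 members, the list genes with the largest called differences (up to 4 in each direction), Slc15a1, Slc6a19 and Cltrn, the 2 nearest profiles per member and up to 3 genes per marker list. A further gene of that rule is not reported here. Dpep1, Cndp2, Lap3 and the markers beyond that number were named after their values were seen. Alternatives covered background correction, scaling, filter, variance prior, replicate block, left-out arrays and the probe per gene.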

Additional observations from a re-analysis of the deposited data

Results flagged for a closer look

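In 4 of 82 groups of 4 arrays (the 16 member probes and 25 list genes, each in both segments), 1 array stood apart from the others by Dixon's criterion. Chance alone gives about 1 in 20. Mme stood at 5.28 log2 on colon array 4, against 4.90 to 4.96 on the others, all below background. One Mep1b probe stood at 7.30 on colon array 3, against 8.03 to 8.15. The untested Tmprss15 probe stood at 5.19 on colon array 1, against 4.63 to 4.69, also below background. Cndp2, a cytosolic dipeptidase, stood at 4.995 on colon array 3, against 6.18 to 6.37. Its difference of 2.07 passed with all arrays (adjusted p = 0.000575).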

How the results depend on the processing

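The 8 peptidases called higher in small intestine kept their call and direction under every alternative that could test them (Mme, detected in small intestine alone, had to), with adjusted p-values up to 0.0332 (Tmprss15 without colon replicates 1 and 4). When detection on all 8 arrays was required, 5 were called, because Anpep, Mme and Tmprss15 were no longer tested. Mep1a was called higher in colon, making 1 member gene, with no background correction (-0.535) and with the intensity trend (-0.59). With no background correction the differences of Anpep, Enpep, Ace, Mme and Tmprss15 shrank to 4.29, 3.84, 3.41, 2.45 and 1.98. The offset of 50 gave 3.54 for Mme and 2.86 for Tmprss15, and the deposited processed values 5.37 and 4.34.

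Over the array, 1339 probes were called for small intestine and 1580 for colon. Same-numbered arrays deviated from their group means with correlations of 0.07, 0.25, -0.18 and 0.05, so the numbers were not taken as pairs. The counts were 1217 and 1410 with the replicate block, which changed no member's call. They were 805 and 943 without colon replicates 1 and 4, and 1051 and 744 without scaling. The 8-array requirement left 847 called for small intestine. Of the other peptide digestion genes, 2 were higher in colon by limma, 0 without scaling and 1 with the dimmest probe per gene. Signal near background limits Mme, Tmprss15 and Anpep in colon.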
